A study of Mus musculus with 9 samples.

Results

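The peptidylarginine deiminases other than Padi6 are 4 genes, Padi1, Padi2, Padi3 and Padi4, of the 20087 named genes measured here in preimplantation mouse embryos. They were taken by gene name, and all 4 passed the filter on low values, which asked for 10 or more in 3 or more of the 9 libraries. The set was selected on the measured Padi3 level, which was known to be high in 1 knockdown and close to the control in the other, so the Padi3 values are given as a description with no test, while Padi1, Padi2 and Padi4 were tested. All embryos were of the B6D2F1 background and were injected as zygotes with siRNA, which reduces its target mRNA while the gene stays intact. The 3 groups were wild type embryos given nonspecific siRNA (NC), embryos given siRNA against Hdac1 and Hdac2 together (Hdac1/2 cKD), and embryos given siRNA against Sin3a (Sin3a KD). Each group had 3 libraries of polyadenylated RNA, each from a pool of 60 embryos at stage E2.75, and RFP and GFP RNA was added to every sample.

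Peptidylarginine deiminases are calcium-dependent enzymes that turn arginine residues of proteins into citrulline, which removes a positive charge and changes how the protein folds and binds. Padi1 and Padi3 are known mainly from epidermis and hair follicle, where they act on filaggrin, trichohyalin and keratins, Padi2 is the most widely expressed member and acts on myelin and cytoskeletal proteins, and Padi4 citrullinates histones in neutrophils and other cells. Padi6 is a maternal protein of the oocyte cytoplasm that the embryo needs for its earliest divisions. Hdac1 and Hdac2 are histone deacetylases that work in several repressor complexes, and Sin3a is the scaffold of one of them.

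The values are normalised counts, that is, reads per gene divided by the authors' DESeq2 factors, from libraries whose depth was estimated at 8.38 M to 17.0 M reads. Hdac1 and Hdac2 stood at 16.9% and 13.3% of their NC means in Hdac1/2 cKD, and Sin3a stood at 29.0% in Sin3a KD, so the targeted genes followed the labels. Hdac1 also stood at 34.3% of NC in Sin3a KD, with Hdac2 at 90.1%. NC replicate 3 stood apart as the shallowest library, with 28.4% of genes at 0 against 13.2% to 23.4% in the other 8, and NC replicate 1 and Sin3a KD replicate 1 were alone on their sequencing lanes. No label says whether the pools of a group came from separate injection sessions, and p-values here reflect only how much these pools vary. The pools are whole embryos, in which fewer cells of a type and less RNA per cell cannot be told apart.

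Padi3, known as the deiminase of the hair follicle, was the member with the largest difference between groups. Its normalised counts were 33.9, 19.6 and 41.4 in NC replicates 1, 2 and 3, 391, 449 and 498 in Hdac1/2 cKD, and 32.0, 28.3 and 40.1 in Sin3a KD. Every Hdac1/2 cKD library lay far above all 6 others, where 17.1% of tested genes had all Hdac1/2 cKD libraries above NC and 20.4% above Sin3a KD, and the NC and Sin3a KD ranges overlapped. The means were 31.6 ± 11.0 in NC, 446 ± 53.6 in Hdac1/2 cKD and 33.5 ± 6.03 in Sin3a KD (SD, n = 3 each). On the log2(value + 1) scale the difference of Hdac1/2 cKD from NC was 3.83 (SE 0.33), a 14.2-fold higher level, and that of Sin3a KD from NC was 0.13 (SE 0.33, 95% confidence interval -0.59 to 0.84). These values include the ones that chose the gene and carry no test. About 19 to 43 reads lay behind each NC value and 440 to 516 behind each Hdac1/2 cKD value, so counting error was small beside the difference.

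The Padi3 difference from NC in Hdac1/2 cKD ranked 42 of 13343 tested genes, and 12 of the 9757 with a mean of at least 50. Both ranks use the values that chose the gene and are a description only. Padi3 passed the mean of 50 only through Hdac1/2 cKD, as its means were 31.6 in NC and 33.5 in Sin3a KD. Next above it stood Ttyh3 (3.90) and Gprasp2 (3.87), and next below it Hpcal1 (3.82) and Man1a (3.80), all as log2 differences. Each of these 4 genes had at least 1 NC library at 0, and Man1a was listed at 0 in all 3, which was not so for Padi3. Their means in Hdac1/2 cKD ran from 18.6 ± 15.3 normalised counts (Man1a) to 323 ± 37.0 (Ttyh3), all below that of Padi3. Without NC replicate 3 the Padi3 difference was 4.05, and without NC replicate 2, its lowest control, it was 3.53. Within lane 2 it was 4.35 (2 Hdac1/2 cKD libraries against 1 NC library) and within lane 3 it was 3.56 (1 against 1). In Sin3a KD against NC the lane 3 value was -0.29 (2 against 1).

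**Figure D1:**
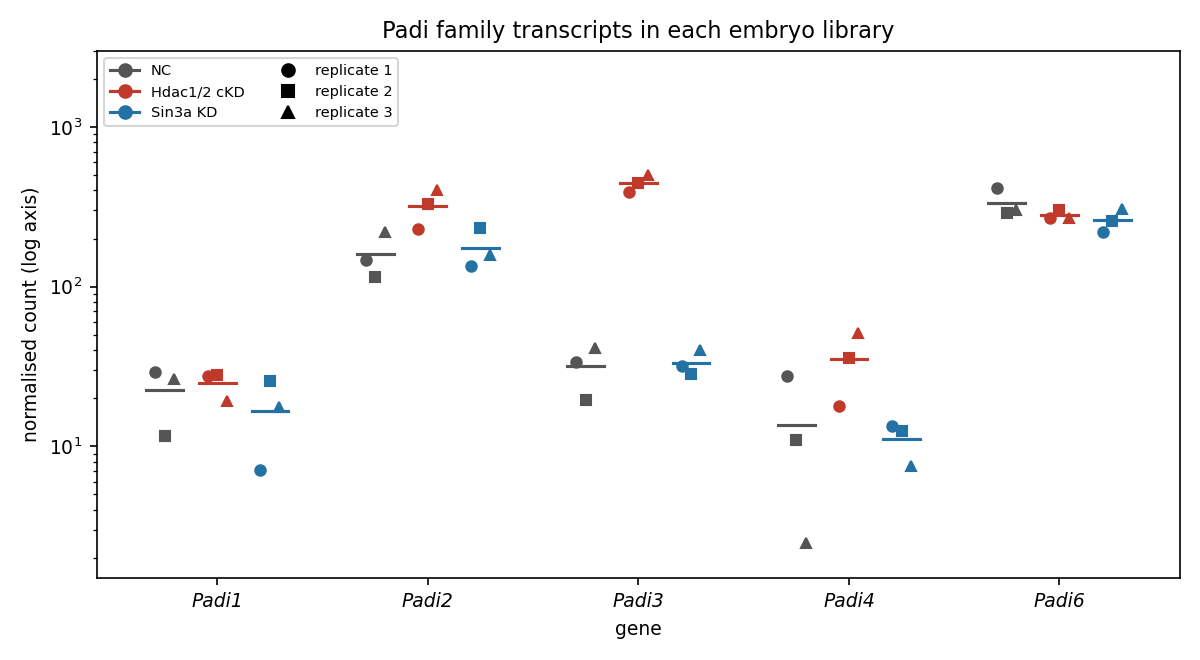
Normalised count of each Padi gene (log axis) in the 9 libraries, coloured by group, with the replicate number as the marker shape and the group mean as a line. The 3 Hdac1/2 cKD libraries of Padi3 sit at 391 to 498, above all other libraries at 19.6 to 41.4, while the Padi1 and Padi6 groups overlap.

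Padi3 lies on chromosome 4 between Padi4 and Padi1, and the stretch upstream of its start is printed because the gene showed the large difference. The 250 bases before the starts of Padi2 and Padi1 are shown with it, as those of the tested member that passed in Hdac1/2 cKD and of the nearest member, which did not. The sequences and starts are from RefSeq on GRCm38.p6, read 5′ to 3′ along each gene's strand: chr4:140810649-140810898 (minus strand) for Padi3, chr4:140906110-140906359 (plus strand) for Padi2 and chr4:140845779-140846028 (minus strand) for Padi1. Capitals mark matches to CCAAT (the NF-Y box), GGGCGG (the GC box bound by Sp1 and Sp3), CACCTG or CAGGTG (an E box) on either strand, so ATTGG and CCGCCC are matches on the other strand.
Padi3: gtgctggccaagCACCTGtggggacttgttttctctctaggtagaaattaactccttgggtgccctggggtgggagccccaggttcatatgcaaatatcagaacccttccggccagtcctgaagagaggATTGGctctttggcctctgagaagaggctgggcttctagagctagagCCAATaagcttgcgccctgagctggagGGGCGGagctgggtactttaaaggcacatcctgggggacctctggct
Padi2: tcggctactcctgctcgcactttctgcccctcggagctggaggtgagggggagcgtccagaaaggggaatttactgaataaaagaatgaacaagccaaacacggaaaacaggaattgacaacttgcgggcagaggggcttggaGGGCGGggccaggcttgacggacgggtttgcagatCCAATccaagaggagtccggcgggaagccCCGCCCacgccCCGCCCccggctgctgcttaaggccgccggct
Padi1: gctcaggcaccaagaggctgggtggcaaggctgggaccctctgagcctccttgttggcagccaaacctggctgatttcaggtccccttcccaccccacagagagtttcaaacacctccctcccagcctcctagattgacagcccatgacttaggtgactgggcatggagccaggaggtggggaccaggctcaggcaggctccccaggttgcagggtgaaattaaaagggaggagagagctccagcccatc

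The Padi3 window held 2 NF-Y boxes, starting 121 and 74 bases before the start, a GC box at 47 and an E box at 238. The Padi2 window held 1 NF-Y box at 72 and 3 GC boxes at 107, 43 and 32, and the Padi1 window held no match to any motif searched, which also included TATAAA and the AP-1 sites TGAGTCA and TGACTCA. The Padi4 window, which is not printed, held a TATA box at 31, an AP-1 site at 54 and 2 E boxes at 98 and 61. The Padi6 window, also not printed, held an NF-Y box at 199, a GC box at 56 and an E box at 78. These are the motif types of the Padi3 window, and Padi6 was called in no comparison. Of 32851 RefSeq promoter windows of the same length, 33.8% held an NF-Y box, 32.7% a GC box, 17.2% an E box, 12.4% a TATA box and 4.46% an AP-1 site. Of the same windows, 10.1% held 2 or more NF-Y boxes, and 4.02% held these with a GC box, as in Padi3. That combination was read from the Padi3 window itself, so its share is a description only. CpG dinucleotides numbered 17 in the Padi2 window, 3 in those of Padi3 and Padi4, 1 in that of Padi6 and 0 in that of Padi1, against a median of 6 over all windows. A match is a description of letters and not a shown binding site.

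Padi2, the widely expressed member, was the only one of the 3 tested members called in Hdac1/2 cKD against NC, at an adjusted p below 0.05. For comparison, 15.6% of all tested genes were called in this contrast, 7.81% as higher and 7.8% as lower. Padi2 normalised counts were 147, 114 and 220 in NC, 231, 329 and 405 in Hdac1/2 cKD, and 135, 234 and 158 in Sin3a KD (replicates 1, 2 and 3). All 3 Hdac1/2 cKD libraries lay above all 3 NC libraries, as they did in 17.1% of tested genes, but the gap between the highest NC and the lowest Hdac1/2 cKD library was narrow. The means were 161 ± 54.2, 321 ± 87.1 and 176 ± 51.7 (SD, n = 3 each). Padi2 rose by 1.01 on the log2 scale in Hdac1/2 cKD against NC (SE 0.30, 95% confidence interval 0.37 to 1.65, limma adjusted p = 0.0345), about 2.02-fold.

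That Padi2 call did not hold in every setting. Its adjusted p in limma was 0.0851 without NC replicate 1, 0.0979 without NC replicate 2, 0.102 without Hdac1/2 cKD replicate 2, 0.144 without Hdac1/2 cKD replicate 3 and 0.0933 without the trend and robust options of limma's variance moderation. The log2 difference stayed between 0.79 and 1.26 over all 18 alternatives, and was 1.26 within lane 2 and 0.87 within lane 3. Between the knockdowns, Padi2 was 0.87 higher in Hdac1/2 cKD than in Sin3a KD on the log2 scale (SE 0.30, limma adjusted p = 0.0611), with overlapping groups. This direct comparison did not pass, nor did it in 13 of the 18 alternatives, with an adjusted p of up to 0.216. In the other 5 its adjusted p was 0.0299 with only the 6 libraries of these groups, 0.0422 without NC replicate 2, 0.0342 without NC replicate 3, 0.0461 without Hdac1/2 cKD replicate 1 and 0.0400 without Sin3a KD replicate 2. Sin3a KD differed from NC by 0.14 (95% confidence interval -0.50 to 0.78, adjusted p = 0.819).

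Padi4, the histone-citrullinating member of neutrophils, was low and variable. Its normalised counts were 27.6, 10.9 and 2.47 in NC, 17.98, 35.8 and 51.4 in Hdac1/2 cKD, and 13.4, 12.5 and 7.55 in Sin3a KD. The NC libraries alone spread widely, with about 35, 10 and 2 reads behind them, and Hdac1/2 cKD replicate 1 lay below NC replicate 1. The means were 13.7 ± 12.8, 35.04 ± 16.7 and 11.1 ± 3.15 (SD, n = 3 each). The log2 difference of Hdac1/2 cKD from NC was 1.65 (SE 0.77, 95% confidence interval -0.0028 to 3.30, limma adjusted p = 0.170) and did not pass. It was 0.85 without NC replicate 3, the library with about 2 reads, and 2.37 without NC replicate 1. All 3 Hdac1/2 cKD libraries lay above all 3 Sin3a KD libraries, as in 20.4% of tested genes, with a log2 difference of 1.49 (SE 0.77, adjusted p = 0.213). Sin3a KD differed from NC by 0.16 (95% confidence interval -1.49 to 1.82, adjusted p = 0.924) on the log2 scale, although its mean normalised count was the lower, and by -0.64 without NC replicate 3.

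Padi1, the epidermal member next to Padi3 on the chromosome, showed no difference that passed. Normalised counts were 29.4, 11.6 and 26.4 in NC, 27.6, 27.8 and 19.2 in Hdac1/2 cKD, and 7.08, 25.5 and 17.6 in Sin3a KD, so every group overlapped every other. The means were 22.5 ± 9.50, 24.9 ± 4.90 and 16.7 ± 9.25 (SD, n = 3 each). Log2 differences from NC were 0.22 in Hdac1/2 cKD (SE 0.60, 95% confidence interval -1.07 to 1.51, limma adjusted p = 0.844) and -0.47 in Sin3a KD (SE 0.60, 95% confidence interval -1.76 to 0.82, adjusted p = 0.685). With about 8 to 37 reads per library these intervals are wide, and the one for Hdac1/2 cKD spans a log2 difference of 1 in either direction.

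In Sin3a KD against NC, 0 of the 3 tested members were called in limma, and 0 had an unadjusted p below 0.05, where 7.96% of all tested genes were called (3.6% higher and 4.36% lower). Between the knockdowns, 0 of 3 were called and 1, Padi2, had an unadjusted p below 0.05, where 17.3% of all tested genes were called (8.49% higher and 8.78% lower). The comparisons with NC share the NC libraries and are not independent of each other. With libraries rescaled to equal totals, the median of all tested genes in Hdac1/2 cKD against NC moved by 0.11 on the log2 scale and the share of calls that were higher went from 50.02% to 67.2%. The Padi3 difference was then 3.94.

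**Figure D2:**
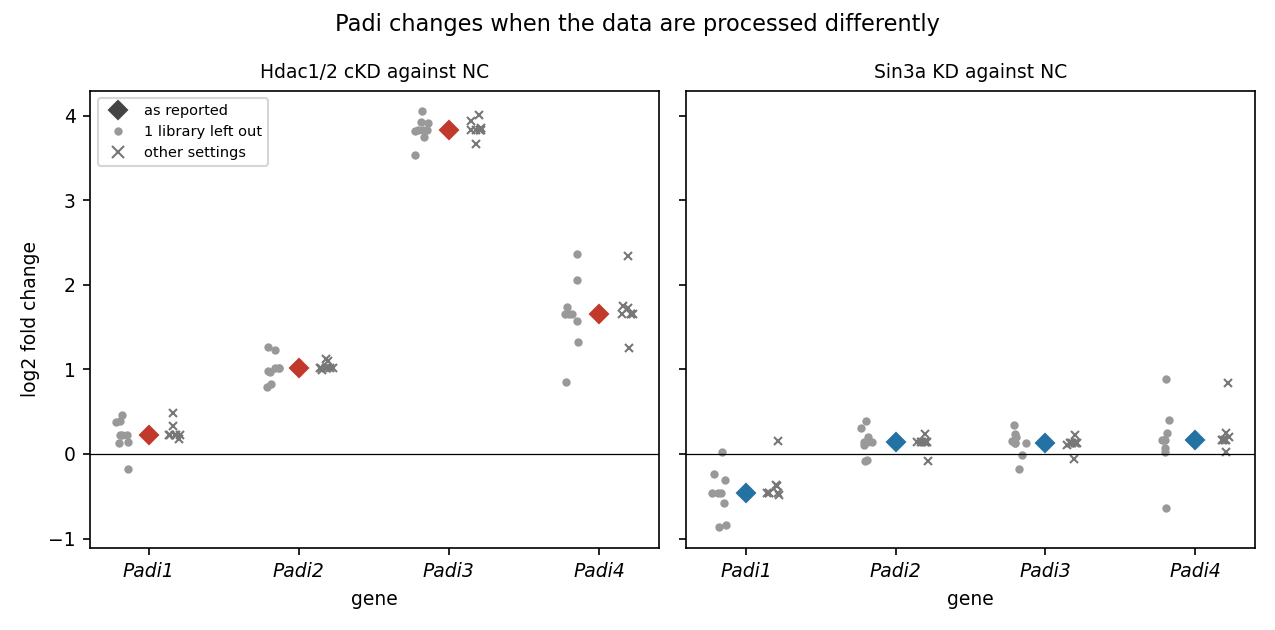
Log2 fold change of Padi1, Padi2, Padi3 and Padi4 in Hdac1/2 cKD against NC (left) and Sin3a KD against NC (right), as reported (diamonds), with 1 library left out (dots) and under other settings (crosses). In Hdac1/2 cKD, Padi3, given as a description with no test, lies between 3.53 and 4.05. Padi2 lies between 0.79 and 1.26, while Padi4 spans 0.85 to 2.37 and Padi1 spans -0.18 to 0.49.

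Divided by transcript length, the members could be set beside each other and beside Padi6, the maternal deiminase. In NC, Padi6 stood at 143 normalised counts per kb and made up 72.3% of the family total. Padi2 followed at 33.7, then Padi3 at 9.55, Padi1 at 5.98 and Padi4 at 5.90, and the ranges of these last 3 overlapped. Levels in Sin3a KD were 112 for Padi6, 36.8 for Padi2, 10.1 for Padi3, 4.81 for Padi4 and 4.46 for Padi1, per kb, with the last 2 overlapping and Padi3 above both in each library. Per kb in Hdac1/2 cKD, Padi3 stood at 135, Padi6 at 120.5, Padi2 at 67.3, Padi4 at 15.1 and Padi1 at 6.62. The ranges of Padi3 (118 to 150) and Padi6 (116 to 129) overlapped in this group, although Padi3 was the higher in each of the 3 libraries.

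Padi3 thus made up 39.1% of the family total per kb in Hdac1/2 cKD, between 38.0% and 39.8% in each library. It made up 4.81% in NC (3.68% to 6.39%) and 6.01% in Sin3a KD (4.75% to 6.90%). A share within a library does not depend on how libraries were scaled to each other, but it does depend on the transcript lengths used. The Padi3 shares are built from the values that chose the gene and are a description only. The 4 members without Padi6 summed to 55.1 per kb in NC, 224 in Hdac1/2 cKD and 56.2 in Sin3a KD. Against 16729 coding genes with a length, Padi3 was higher per kb than 40.6% in NC, 71.1% in Hdac1/2 cKD and 40.6% in Sin3a KD, and Padi2 was higher than 53.7%, 60.8% and 54.0%. Padi6 itself was at 335 ± 70.8, 281 ± 17.8 and 261 ± 43.7 normalised counts in NC, Hdac1/2 cKD and Sin3a KD (SD, n = 3 each) and was called in no comparison (limma adjusted p = 0.484 in Hdac1/2 cKD and 0.316 in Sin3a KD against NC).

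**Figure D3:**
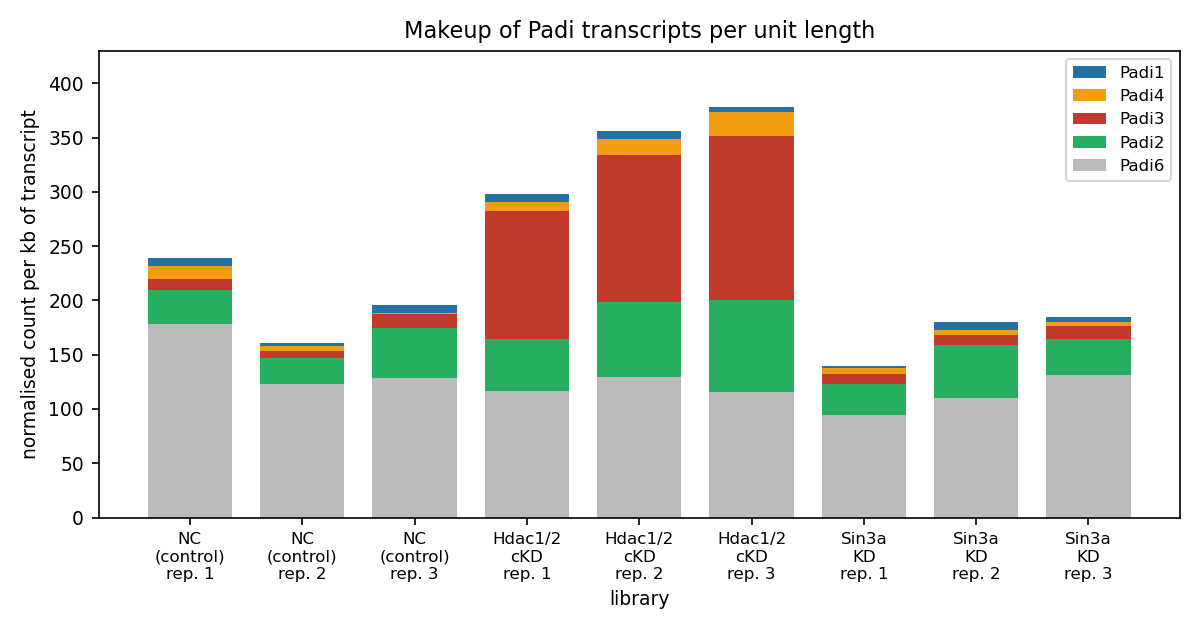
Stacked bars of normalised count per kb of the longest coding transcript for the 5 Padi genes in each of the 9 libraries. Padi6 (grey) fills most of each NC and Sin3a KD bar, and Padi3 (red) fills 38.0% to 39.8% of the Hdac1/2 cKD bars.

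The 5 Padi genes lie side by side on mouse chromosome 4 within 225 kb (GRCm38, GENCODE vM21). In order they are Padi6 (140727355-140742643, minus strand), Padi4 (140745865-140774236, minus), Padi3 (140785365-140810648, minus), Padi1 (140812983-140845778, minus) and Padi2 (140906344-140952586, plus). The start of Padi3 (ENSMUSG00000025328.9) lies 2.34 kb from Padi1 (ENSMUSG00000025329.3) and its end 11.1 kb from Padi4 (ENSMUSG00000025330.6), while Padi2 (ENSMUSG00000028927.6) begins 95.7 kb away. The gene nearest to Padi3, Padi1, was not the one with the next largest difference. Beyond the cluster, the direct neighbours Rcc2, a chromatin condensation regulator, and Sdhb, a subunit of succinate dehydrogenase, differed from NC by -0.0037 (limma adjusted p = 0.989) and 0.025 (adjusted p = 0.936) on the log2 scale in Hdac1/2 cKD.

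Within 500 kb of the cluster, 19 other genes were in the table and 16 were tested. In Hdac1/2 cKD against NC, 4 rose (Epha2, Fam131c, Atp13a2 and Necap2) and 1 fell (Zbtb17), where 7.81% of all tested genes were called higher and 7.8% lower. Their median log2 difference was 0.29 against 0.03 over all tested genes. Epha2, an ephrin receptor, went from 187 ± 45.8 to 411 ± 105 normalised counts (log2 difference 1.13, SE 0.24, limma adjusted p = 0.00741), and Zbtb17, the transcription factor Miz1, from 2090 ± 437 to 1262 ± 17.3 (-0.71, SE 0.14, adjusted p = 0.00397). These 2 calls held in all 18 alternatives. Fam131c was called at 1.49 (adjusted p = 0.0230) but not without NC replicate 3 (0.0635), Hdac1/2 cKD replicate 2 (0.0930) or Hdac1/2 cKD replicate 3 (0.0859). The Atp13a2 call (adjusted p = 0.0241) was lost without the same 3 libraries (0.0709, 0.0768 and 0.105) and without limma's trend and robust options (0.0543). That of Necap2 (0.0457) was lost without NC replicate 2 or 3, any Hdac1/2 cKD library or Sin3a KD replicate 2 (0.0588 to 0.143), with no filter (0.0681), without trend and robust options (0.0740) and with 6 libraries (0.0552). Against NC, Sin3a KD had 1 called gene of these 16, Zbtb17 as lower (0.0345), where 7.96% of all tested genes were called. That call was lost without NC replicate 1 or 3, Hdac1/2 cKD replicate 1 or 2, or any Sin3a KD library (0.0503 to 0.125), with equal totals (0.0564), without trend and robust options (0.124), with lane (0.181) and with 6 libraries (0.0767).

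**Figure D4:**
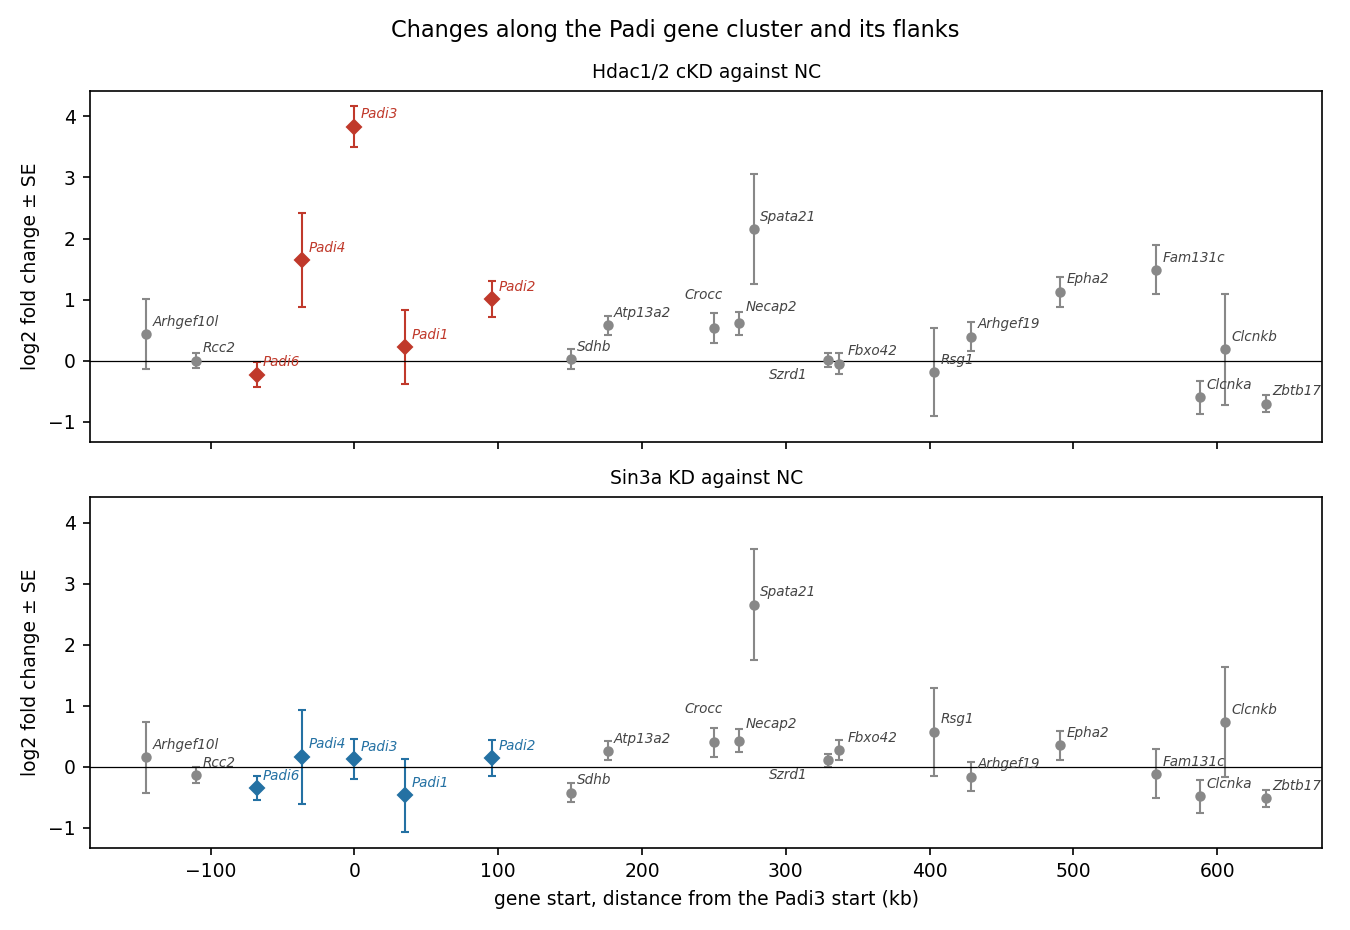
Log2 fold change ± SE against NC (limma) for the 5 Padi genes (diamonds) and 16 tested genes within 500 kb (grey dots), placed by the distance of each gene's start from that of Padi3 in kb. In the upper panel (Hdac1/2 cKD) Padi3 stands at 3.83 with Padi1 beside it at 0.22, and in the lower panel (Sin3a KD) the Padi genes lie between -0.47 and 0.16.

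The members shared few identical stretches of 31 bases, compared along the transcript strand only. Matches to the reverse complement were not counted, and sharing of reads was not tested. Coding sequences of Padi1, Padi2, Padi3 and Padi4 were 64.5% to 67.4% identical to each other in pairwise alignments, and 58.6% to 62.7% identical to Padi6. Of 3381 stretches of 31 bases in the Padi3 transcripts, 46 (1.36%) also occurred in another gene, 33 of them in Padi1, and the shared part was 1.02% in Padi1, 2.57% in Padi2 and 0.48% in Padi4. Transcripts annotated on the other strand overlap more: the noncoding gene Gm13032 (140810993-140817511, plus strand) covers 32.0% of the exon bases of Padi1, and Gm13031 covers 2.97% of those of Padi2. Gm13032 starts 345 bases from the Padi3 start and shares no exon base with it. These 2 genes were not analysed here. The sources used here do not say whether counting used strand, and without strand the reads of Padi1 and Gm13032 cannot be told apart where they overlap.

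Among 13342 other tested genes, the patterns most like that of Padi3 over the 9 libraries were those of Ptk7 (Pearson r = 0.99), Ccnd3, Cd24a, Thyn1 and Apoe (each 0.98), on log2(value + 1). These are descriptions over libraries of 3 groups that share depth and treatment. Ptk7, a receptor-like protein of planar cell polarity, stood at 77.1 ± 11.3, 619 ± 136 and 84.0 ± 8.69 normalised counts in NC, Hdac1/2 cKD and Sin3a KD (SD, n = 3 each). Cd24a, a surface glycoprotein, stood at 86.0 ± 19.6, 441 ± 78.5 and 77.1 ± 8.66, and Apoe, a lipid carrier, at 262 ± 59.8, 864 ± 97.6 and 217 ± 16.0. Ccnd3, a D-type cyclin, was far more abundant, at 2099 ± 301, 4675 ± 135 and 2248 ± 252. Thyn1 was listed at 0 in all NC and Sin3a KD libraries and averaged 44.7 ± 9.24 in Hdac1/2 cKD, so it passed the filter on low values only through that group. The same correlation was 0.83 for Padi2 (rank 590 of the 13342), 0.63 for Padi4 (1873), 0.39 for Padi1 (3675) and -0.08 for Padi6 (7618). All these correlations use the Padi3 values that chose the gene.

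Of 14 tested genes whose proteins are reported as citrullinated, 3 rose in Hdac1/2 cKD against NC (Eno1, Dnmt3a and Mbp) and 1 fell (Tchh), with a median log2 difference of -0.05, against 7.81% higher and 7.8% lower over all tested genes. Tchh encodes trichohyalin, the hair follicle protein on which Padi3 is known to act. It averaged 105 ± 15.2 normalised counts in NC, 47.2 ± 5.47 in Hdac1/2 cKD and 181 ± 9.56 in Sin3a KD (SD, n = 3 each). It fell by 1.14 on the log2 scale in Hdac1/2 cKD against NC (SE 0.26, limma adjusted p = 0.0105) and was 1.92 lower there than in Sin3a KD (log2 difference -1.92, adjusted p = 0.000344), in all 18 alternatives each. Its difference of 0.79 in Sin3a KD against NC did not pass (adjusted p = 0.0819). Tchh was thus lower in Hdac1/2 cKD than in NC, where Padi3 was higher. Eno1, the glycolytic enzyme enolase, rose from 622 ± 149 to 1194 ± 129 (log2 difference 0.96, adjusted p = 0.00246), also in all 18. The call of Dnmt3a was lost without NC replicate 2 or 3 or any Hdac1/2 cKD library (adjusted p 0.0508 to 0.0675) and without trend and robust options (0.0932). That of Mbp was lost without NC replicate 1 or 3, any Hdac1/2 cKD library or Sin3a KD replicate 1 (0.0583 to 0.137), and in 5 other settings, lane among them (0.0520 to 0.226). Against NC, 1 of the 14 was called in Sin3a KD, Npm1 as lower, where 4.36% of all tested genes were called lower. That call was lost without Sin3a KD replicate 1 (0.0532) or 3 (0.0557). In all the lists described here, 12 calls were made in Sin3a KD against NC. All 12 were lost without limma's trend and robust options (0.0523 to 0.153), and all except those of Hdac1 and Krt8 with lane as a factor (0.0629 to 0.344).

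Arginines are also modified by protein arginine methyltransferases, and 1 of 9 tested genes of that group fell in Hdac1/2 cKD against NC and none rose, where 7.8% of all tested genes were called lower and 7.81% higher. Prmt6, which methylates histones, fell by 1.11 on the log2 scale, from 824 ± 168 to 376 ± 37.1 normalised counts (limma adjusted p = 0.00128). It was also called lower in Sin3a KD against NC, but not without NC replicate 1 (0.0872), Sin3a KD replicate 2 (0.0553) or Sin3a KD replicate 3 (0.104). Prmt3 was called lower there as well, but not without NC replicate 3 (0.0589), Sin3a KD replicate 1 (0.0747) or Sin3a KD replicate 3 (0.0827). Over all tested genes, 4.36% were called lower and 3.6% higher in Sin3a KD against NC. Of 6 reported partners of Padi4 at genes, Hdac1 and Hdac2 are the siRNA targets and fell, and Trp53 rose by 0.54 (log2 difference, adjusted p = 0.00486) in Hdac1/2 cKD against NC. Over all tested genes, 7.8% were called lower and 7.81% higher in this comparison. Sesn2 was called higher there too, and lost that call without any 1 NC or Hdac1/2 cKD library or Sin3a KD replicate 1 (0.0566 to 0.181), and in 4 other settings (0.0542 to 0.125). For Sin3a KD against NC, Hdac1 fell, a call lost without trend and robust options (0.0523) and in no other alternative. Cdkn1a was called higher there, and lost without any library except NC replicate 3 and Sin3a KD replicate 2 (0.0526 to 0.173) and with 6 libraries (0.0844).

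Of 13 tested transcription factors reported at Padi promoters and enhancers, 1 rose (Jund) and 3 fell (Nfya, Fosl2 and Jun) in Hdac1/2 cKD against NC, with a median log2 difference of -0.15, against 7.81% higher and 7.8% lower over all tested genes. Jund, an AP-1 subunit, went from 2421 ± 303 to 4243 ± 342 normalised counts (0.81, limma adjusted p = 0.00308) in all 18 alternatives. Nfya, a subunit of NF-Y, which binds CCAAT boxes, went from 934 ± 173 to 589 ± 80.6 (-0.66, adjusted p = 0.0137). Binding of NF-Y at the Padi windows was not tested. The Nfya call was lost without NC replicate 1 (0.0551), without Hdac1/2 cKD replicate 2 (0.0661), without trend and robust options (0.0566) and when lane was a factor (0.0571). Nfya was also lower in Hdac1/2 cKD than in Sin3a KD by a log2 difference of -0.74 (adjusted p = 0.00621) in all 18. Jun was lower than in Sin3a KD as well (-1.02, adjusted p = 0.000972, all 18), and its call against NC was lost without Hdac1/2 cKD replicate 1 (0.0613) or 3 (0.0627) and with lane (0.0552). The Fosl2 call was lost without NC replicate 2 or 3 or Hdac1/2 cKD replicate 1 or 2 (0.0510 to 0.0921), with lane (0.0764) and with 6 libraries (0.0617). For Sin3a KD against NC, 1 of 13 was called, Junb as higher, where 3.6% of all tested genes were called higher. That call was lost without any library except NC replicate 2 and Sin3a KD replicate 2 (0.0501 to 0.163), with no filter (0.0505) and with 6 libraries (0.0776). The subunits Nfyb and Nfyc and the GC-box factors Sp1 and Sp3 were not called against NC.

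Markers of the cells in which these enzymes are best known were checked beside the Padi levels. Over all tested genes, 15.6% were called in Hdac1/2 cKD against NC and 7.96% in Sin3a KD against NC. Of 22 epidermis and hair follicle genes 11 were in the table and 3 were tested, of which Tchh alone was called, as lower in Hdac1/2 cKD. The summed normalised counts of the 11 ran from 137 to 206 (NC), 143 to 197 (Hdac1/2 cKD) and 251 to 294 (Sin3a KD), with Flg and Krt27 at 0 in every NC and Sin3a KD library. Its members differed in direction. Tchh, most of the NC sum, fell in Hdac1/2 cKD, while Krt10, a keratin of the upper epidermis, averaged 26.0 ± 30.0 in NC and 57.5 ± 8.41 in Hdac1/2 cKD (log2 difference 1.72, limma adjusted p = 0.0866, unadjusted p = 0.0176). The part of epidermal cells in the Padi3 values was not tested. Of 11 myeloid genes 6 were in the table, with sums of 940 to 1087 (NC), 890 to 1042 (Hdac1/2 cKD) and 497 to 676 (Sin3a KD), most of it Csf3r, a cytokine receptor. In limma 0 of 4 tested myeloid genes were called in Hdac1/2 cKD against NC, with 1, Spi1, at an unadjusted p below 0.05. Csf3r and Spi1 were called lower in Sin3a KD against NC, but not without NC replicate 1 (0.0622 and 0.104), Sin3a KD replicate 1 (0.1003 and 0.0853) or Sin3a KD replicate 3 (0.0758 and 0.115), nor Spi1 without NC replicate 3 (0.0849). With 6 libraries they were at 0.0508 and 0.0584.

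The 8 glial genes, of which 2 were tested and Mbp was called as given above, summed to 29.9 to 110.02 (NC), 96.5 to 145 (Hdac1/2 cKD) and 65.5 to 124 (Sin3a KD) normalised counts. In Hdac1/2 cKD and Sin3a KD against NC, 2 and 1 of the 2 had a limma unadjusted p below 0.05. Their median log2 differences were 1.88 and 1.80. Mag, not called against NC, averaged 1.48 ± 2.56 (NC), 10.4 ± 7.37 (Hdac1/2 cKD) and 13.0 ± 2.56 (Sin3a KD). The 9 cumulus and granulosa genes in the table, of 12, summed to 372 to 451, 338 to 403 and 314 to 442 in the same order. In limma 0 of the 4 tested among them were called against NC in either knockdown, where 15.6% and 7.96% of all tested genes were called in Hdac1/2 cKD and Sin3a KD. In the same order, 2 and 1 of the 4 had an unadjusted p below 0.05, and the median log2 differences were 0.88 and 0.48. Most of that sum was Amhr2, a receptor of anti-Mullerian hormone, at 376 ± 48.8 in NC, 269 ± 35.8 in Hdac1/2 cKD and 284 ± 71.2 in Sin3a KD. Foxl2, a granulosa transcription factor, differed the other way, at 6.38 ± 2.10, 22.9 ± 13.8 and 26.2 ± 13.8, with both knockdowns above every NC library and limma adjusted p = 0.161 and 0.127. Of all tested genes, 17.1% lay above NC in this way in Hdac1/2 cKD and 13.9% in Sin3a KD. About 5 to 7 reads lay behind each Foxl2 value in NC. The part of such cells in the Padi values was not tested.

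The embryo's own stage markers moved with the groups. In Hdac1/2 cKD against NC, 8 of 12 fell (Pou5f1, Cdx2, Gata3, Tfap2c, Cdh1, Esrrb, Klf5 and Dppa2) and none rose, where 7.8% of all tested genes were called lower and 7.81% higher. The summed level of the 12 was 38465 to 41432 normalised counts against 55265 to 61096 (NC) and 51089 to 56172 (Sin3a KD). Cdx2, a trophectoderm transcription factor, went from 1186 ± 256 to 178 ± 25.3 (log2 difference -2.72, limma adjusted p = 2.9e-06). Against NC, 4 of 12 fell in Sin3a KD, where 4.36% of all tested genes were called lower. The call of Krt8 was lost without trend and robust options (0.0523) and in no other alternative. Those of Nanog, Krt18 and Dppa2 were lost in more alternatives, among them without NC replicate 3 or Sin3a KD replicate 1 or 3 (Nanog, 0.0593 to 0.0766), NC replicate 1 or 3 or Sin3a KD replicate 3 (Krt18, 0.0516 to 0.0713), and NC replicate 1 or Sin3a KD replicate 1 or 3 (Dppa2, 0.0555 to 0.0974). Of 11 oocyte and maternal genes, Padi6 among them, the sum was 5943 to 7304 (Hdac1/2 cKD), 10113 to 11664 (NC) and 8613 to 10115 (Sin3a KD), nearly all of it Khdc3. The median log2 difference of the list in Hdac1/2 cKD against NC was 0.34, in the opposite direction to the sum. Khdc3, a partner of Padi6 in the maternal complex, averaged 10324 ± 737 in NC and 6014 ± 752 in Hdac1/2 cKD, and fell by 0.78 on the log2 scale in Hdac1/2 cKD (adjusted p = 0.000453), and Zbed3 was called higher, but not without NC replicate 1 or 2 or any Hdac1/2 cKD library (0.0815 to 0.169), with a pseudocount of 0.5 (0.0667) or with lane (0.119). In Sin3a KD against NC, limma called 0 of the 11, with 1, Khdc3, at an unadjusted p below 0.05, where 7.96% of all tested genes were called. The part of embryo stage in the Padi3 and Padi2 values was not tested.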

How the data were processed

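RNA was sequenced from 9 libraries in 3 groups. Per the submitters' processing notes, reads were counted with Salmon and normalised with DESeq2 on build GRCm38. Versions, transcript annotation and any use of strand were not given in the sources used here. Signal values deposited by the authors are gene counts that the authors divided by DESeq2 factors. Whole reads could not be recovered, so the value of 1 read was estimated per library to give depth and read numbers. The 1 line without a gene name held at most 0.00896% of a library and was left out. Tests used means of log2(value + 1), so for low genes the fold can depart from the ratio of means in either direction. In Hdac1/2 cKD against NC it was 3.14 against a ratio of 2.57 for Padi4, and 2.86 against 3.58 for Foxl2. The 13343 genes with at least 10 in at least 3 libraries were fitted together in limma 3.58.1 (R 4.3.3, trend and robust, 6 residual degrees of freedom) with Benjamini-Hochberg adjustment over all tested genes and calls at an adjusted p below 0.05. The fit was tested on simulated data. Alternatives were pseudocounts of 0.5 and 5, no filter or a mean of at least 50, equal totals, no trend or robust option, lane, replicate block, only the 6 libraries compared, and leaving out each library.

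The members and gene lists were chosen with earlier results of these data known. Named genes are the 4 members, Padi6, the siRNA targets, genes within 500 kb, up to 4 called members per list (2 where none passed), the 5 genes most like Padi3 and its 2 neighbours in rank on each side; examples shown were picked from these after their values were seen. The lists were embryo stage, oocyte and maternal, epidermis and hair follicle, myeloid, glia, and cumulus and granulosa markers, citrullination substrates, arginine methylation, Padi4 partners and Padi promoter factors. Lengths are of the longest coding transcript in GENCODE vM21, in which 94.9% of symbols matched 1 gene. All 5 Padi genes matched RefSeq promoter windows by symbol. Protein sequences were not used here.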

Additional observations from a re-analysis of the deposited data

How the results depend on the processing

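Depth limits Padi1 and Padi4 most, since 2 to 51 reads lay behind each of their values, and 3 libraries per group leave wide intervals for them. The filter of a mean of at least 50 gives no value for Padi1 and Padi4. The Padi3 difference in Hdac1/2 cKD against NC ran from 3.53 to 4.05 on the log2 scale over the alternatives. Its difference from Sin3a KD was 4.07 with lane as a factor. These refits use the values that chose the gene and are a description only. With lane as a factor, Padi1 and Padi2 in Sin3a KD against NC changed sign (0.16 and -0.086), as did Padi6 in Hdac1/2 cKD against Sin3a KD (-0.013) and Rcc2 in Hdac1/2 cKD against NC (0.12, and 0.11 with equal totals). That fit uses no difference from NC replicate 1 or Sin3a KD replicate 1, which are alone on their lanes.

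Leaving out 1 library at a time moved Padi1 in Hdac1/2 cKD against NC between -0.18 and 0.46 and in Sin3a KD against NC between -0.86 and 0.019. In Sin3a KD against NC, Padi2 moved between -0.083 and 0.39 and Padi4 between -0.64 and 0.88, and Padi6 in Hdac1/2 cKD against Sin3a KD between -0.00076 and 0.24. In Hdac1/2 cKD against NC, Rcc2 moved between -0.15 and 0.073 and Sdhb between -0.045 and 0.11. None of these differences passed in any setting; the cause of each change of sign was not tested.

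The number of called members among Padi1, Padi2 and Padi4 was 0 to 1 with 1 library left out, in Hdac1/2 cKD against NC (where it was 1) and against Sin3a KD (where it was 0). It was 0 against NC with limma without trend and robust options and 1 against Sin3a KD with only the 6 libraries compared. Over all genes, 2083 were called in Hdac1/2 cKD against NC (1267 to 2175 with 1 library left out, 1369 with limma without trend and robust options). In Sin3a KD against NC 1062 were called (337 to 1537 with 1 left out, 36 with limma without trend and robust options, 94 with lane, 611 with 6 libraries). In Hdac1/2 cKD against Sin3a KD 2304 were called (1427 to 2759 with 1 left out, 1002 with lane). Called members of the 10 lists numbered 12 in Sin3a KD against NC (2 to 12 with 1 left out, 0 with limma without trend and robust options, 2 with lane) and 26 in Hdac1/2 cKD against Sin3a KD (14 with lane). With equal totals the share of calls that were higher in Sin3a KD against NC went from 45.2% to 63.6%, and with lane to 64.9%. Of 60 calls outside the family that were followed, 25 held in every alternative.

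Deviations from the group means were barely correlated between libraries of different groups with the same replicate number (r = -0.02 to 0.06 over 9 pairs, against -0.04 to 0.03 over 18 pairs of different numbers). The main fit therefore did not pair them. Low correlations cannot decide whether pools with the same number shared an injection session. With the replicate block, Padi2 in Hdac1/2 cKD against NC had an adjusted p of 0.0316 and against Sin3a KD of 0.0527, 1 and 0 of Padi1, Padi2 and Padi4 were called in those comparisons, and 2140 genes were called in the former.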
